A study of Mus musculus with 2 samples.

Results

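The Mir15, Mir16, Mir195 and Mir497 genes are 7 mouse microRNA genes in 3 small paralogous clusters. They were chosen by symbol, as Mir15a, Mir16-1, Mir15b, Mir16-2, Mir195a, Mir497 and Mir497b, and all 7 were among the 2202 microRNA genes counted. The rule that picks them uses no measured value, although earlier results of these data were known when the family was chosen. A microRNA is a short RNA cut from a hairpin precursor, and bases 2 to 8 of the mature strand, the seed, do most of the pairing with target messenger RNAs. The guide strands of this family are known to repress D-type and E-type cyclins and other genes that drive the cell cycle. Their rise after birth has been linked to cell cycle exit in striated muscle, best described for miR-195 in the heart.

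The tissue was gastrocnemius, the large calf muscle, of female mice aged 14 days. The animals were of strain B6CASTF1/J, the first-generation hybrid of C57BL/6J and CAST/EiJ, and no treatment or transgene is named. There is 1 group with 2 biological replicates, and replicate 1 carries a biosample name that mentions 3 females while replicate 2 names a single animal. Both carry 1 donor identifier, so the SD measures only the spread between these libraries, which may be partly technical. No second age or tissue was measured, so levels were described and no change with age could be tested.

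The libraries held 8002643 and 12134412 reads, of which 2672454 and 4292012 fell on the strand of a microRNA gene. Levels are counts scaled to 1e+06 assigned reads (CPM), so 1 read was worth 0.374 CPM in replicate 1 and 0.233 CPM in replicate 2. Of the 8 skeletal muscle marker genes listed, 7 reached 1 CPM in both libraries, against 16.7% of all 2202 genes. Mir206 alone stood at 89900 ± 7361 CPM (SD, n = 2), while Mir133a-1 had only 9 and 12 reads. Markers of other cell types were present too. The RNA came from whole muscle, and the source of these markers was not tested. More cells of a type and more RNA per cell cannot be told apart in such samples. Mature microRNAs are of nearly equal length, so counts were compared between genes without a length correction, and differences in adapter ligation between sequences were not tested.

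The mature guide strands show what the members share and where they part. They are printed 5′ to 3′ from RefSeq (GRCm38.p6), which had a mature entry for 7 of 7 members, with the seed in capitals. The first group holds the strands with the family seed, AGCAGCA.
miR-16-5p (Mir16-1 and Mir16-2): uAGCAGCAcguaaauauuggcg
miR-195a-5p (Mir195a): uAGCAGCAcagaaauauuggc
miR-15a-5p (Mir15a): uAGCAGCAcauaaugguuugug
miR-15b-5p (Mir15b): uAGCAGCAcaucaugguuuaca
miR-497a-5p (Mir497): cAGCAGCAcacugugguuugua
The seed was the same in 6 of the 7 members. The last member, Mir497b, is annotated on the strand opposite Mir497 and has another seed.
miR-497b (Mir497b): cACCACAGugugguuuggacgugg

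Outside the seed the guide strands lay at different distances from miR-16-5p. Counting positions from 1 at the 5′ end and reading the base of miR-16-5p first, miR-195a-5p differed from miR-16-5p at 2 of 21 compared positions, G10A and U11G. miR-15a-5p differed at 6 of 22 positions and miR-15b-5p at 8. miR-497a-5p was the farthest, at 11 of 22, and it begins with another base (U1C). The Mir15a and Mir15b strands differed from each other at 4 of 22 positions, and miR-497a-5p differed from them at 5 and 6 of 22. The strands of Mir15a, Mir15b and Mir497 were thus closer to each other than to miR-16-5p, while miR-195a-5p was close to miR-16-5p. Position in the genome crossed this grouping in every cluster. The guide strands of cluster partners differed at 6 of 22 positions for Mir15a and Mir16-1 and at 8 of 22 for Mir15b and Mir16-2. For Mir497 and Mir195a they differed at 9 of 21.

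The loci are given on mm10 from GENCODE M21, the build and annotation named for the counts. Mir15a (chr14:61632027-61632110) and Mir16-1 (chr14:61631880-61631972) lie on the minus strand, 54 nt apart, within Dleu2, a long noncoding RNA gene of the region deleted in lymphocytic leukaemia. Both are intronic in 8 Dleu2 transcripts, and 1 further transcript has an exon that overlaps Mir16-1 by 13 nt. Mir15b (chr3:69009772-69009835) and Mir16-2 (chr3:69009902-69009996) lie 66 nt apart on the plus strand, in an intron of Smc4, which encodes a condensin subunit needed to compact chromosomes in mitosis. Mir497 (chr11:70234717-70234800) and Mir195a (chr11:70235042-70235135) lie 241 nt apart on the plus strand, and no gene on their strand covers them. The nearest other genes are Bcl6b, 4918 nt before Mir497, and 0610010K14Rik, 70 nt after Mir195a, both on the minus strand. The Mir497b hairpin (chr11:70234692-70234816, minus strand) covers all 84 nt of Mir497.

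The Mir16 hairpins show why the counts of these 2 genes cannot be read as the level of miR-16. They are printed from RefSeq with the stretch they share in capitals.
Mir16-1: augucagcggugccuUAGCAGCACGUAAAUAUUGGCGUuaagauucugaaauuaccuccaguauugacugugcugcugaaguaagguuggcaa
Mir16-2: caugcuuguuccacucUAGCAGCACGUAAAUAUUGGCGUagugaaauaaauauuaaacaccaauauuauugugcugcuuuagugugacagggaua
The shared run is 23 nt and contains all 22 nt of miR-16-5p. A read that lies inside it fits both loci, and in the count layout of these files a read with several alignments is given to no gene. The reads assigned to Mir16-1 or Mir16-2 therefore reach past the shared run, carry a base that sets the loci apart, or come from the 3p strands. The 3p strands, ccaguauugacugugcugcuga for Mir16-1 and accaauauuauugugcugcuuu for Mir16-2, differed at 10 of 22 positions and share at most 9 nt. The counts pool both arms, so these sources were not separated. Multiply aligned reads numbered 4219456 in replicate 1 and 6352784 in replicate 2, which is 128 and 130 times the family's assigned reads. How many of them are miR-16 cannot be read from these files, so the Mir16 read counts are lower bounds. The Mir16 CPM values may err either way, because the assigned total also lacks the multiply aligned reads. Their place in the order below is not an order of mature microRNAs.

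The other guide strands had no such copy. None of the mature strands of Mir15a, Mir15b, Mir195a or Mir497 occurs whole in the same orientation in another of the 2202 annotated hairpins. The longest run that Mir195a shared with another hairpin was 16 nt, with Mir195b, and for Mir15a it was 13 nt. Copies outside annotated hairpins were not searched, and bases that differ between CAST/EiJ and the reference were not tested.

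The family's read counts are lower bounds for the same reason as those of the Mir16 genes. Its shares may err either way, because the assigned total also lacks the multiply aligned reads. The family held 1.24% of assigned reads in replicate 1 (33013 reads, 95% exact binomial interval 1.22 to 1.249). In replicate 2 it held 1.14% (48930 reads, 1.13 to 1.15). The mean was 1.19% ± 0.0674 (SD, n = 2). These and all other intervals cover counting error only. Of the 7 members, 6 reached 1 CPM in both replicates, against 16.7% of all 2202 genes. All 6 also exceeded 81.5 CPM, the median of the 367 genes that reached 1 CPM in both. The 6 members with reads thus ranked between 25 and 150, and Mir497b had no read.

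Mir195a, the gene linked to growth arrest of heart muscle cells after birth, was far above the rest. It had 8142 CPM in replicate 1 (8035 to 8250) and 7785 CPM in replicate 2 (7702 to 7868), a mean of 7963 ± 253 CPM. This was rank 25 of all microRNA genes, between Mir434 (7971 ± 568 CPM) and Mir10b (7959 ± 443 CPM), from which it did not differ beyond the spread of the replicates. It supplied 65.9% of the family's assigned reads in replicate 1 and 68.3% in replicate 2. Because the family total lacks the miR-16-5p reads that fit both Mir16 loci, this share and that of its cluster are upper bounds, by an amount that cannot be read from these files. Its level was 5.47 times that of the next member, Mir15a, in replicate 1 and 5.88 times in replicate 2.

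Mir497, its neighbour in the same cluster, was much lower. It had 889 CPM in replicate 1 (854 to 926) and 616 CPM in replicate 2 (593 to 640), a mean of 753 ± 193 CPM at rank 80. Replicate 1 was the higher library and the 2 intervals did not overlap, so the SD was about as large as its distance to the next member down. Genes next to it in rank were Mir485 (771 ± 119 CPM) and Mir145a (737 ± 28.3 CPM). Together Mir497 and Mir195a made up at most 73.4% ± 0.414 of the family's reads, which was 73.1% in replicate 1 and 73.7% in replicate 2.

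The hairpins of this cluster are shown with the guide strand in capitals, because these neighbours are the highest and a much lower member.
Mir497: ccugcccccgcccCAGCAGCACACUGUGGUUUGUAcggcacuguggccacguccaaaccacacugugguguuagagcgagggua
Mir195a: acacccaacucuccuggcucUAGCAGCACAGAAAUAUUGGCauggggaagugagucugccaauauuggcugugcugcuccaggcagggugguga
Hairpin GC content was 61.9% for Mir497 and 54.3% for Mir195a, the highest of the members with reads. The others ranged from 36.8% for Mir16-2 to 45.2% for Mir15a. Any part of GC content in the levels was not tested.

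Mir15a, from the Dleu2 locus and known as a repressor of Bcl2 in lymphocytes, had 1489 CPM in replicate 1 (1443 to 1535) and 1325 CPM in replicate 2 (1291 to 1360). Its mean of 1407 ± 116 CPM placed it at rank 64, between Mir128-1 (1424 ± 112 CPM) and Mir361 (1318 ± 52.0 CPM). Mir16-1, its cluster partner, had 587 CPM (559 to 617) and 558 CPM (536 to 581) from reads that could be assigned to it. That is a mean of 573 ± 20.5 CPM at rank 99, between Mir146 (582 ± 124 CPM) and Mir20a (550 ± 21.4 CPM). The pair held 16.7% ± 0.201 of the family's reads.

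Mir15b, hosted by Smc4, had 1091 CPM in replicate 1 (1052 to 1131) and 950.4 CPM in replicate 2 (921 to 980). The mean was 1021 ± 99.3 CPM at rank 69, between Mir673 (1091 ± 131 CPM) and Mir423 (993 ± 68.7 CPM). Mir16-2 was the lowest member with reads, at 155 CPM (141 to 171) and 165 CPM (153 to 178), a mean of 160.2 ± 7.002 CPM at rank 150. Its neighbours in rank were Mirlet7f-1 (164 ± 9.81 CPM) and Mir339 (159 ± 6.23 CPM). This pair held 9.94% ± 0.213 of the family's reads.

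**Figure D1:**
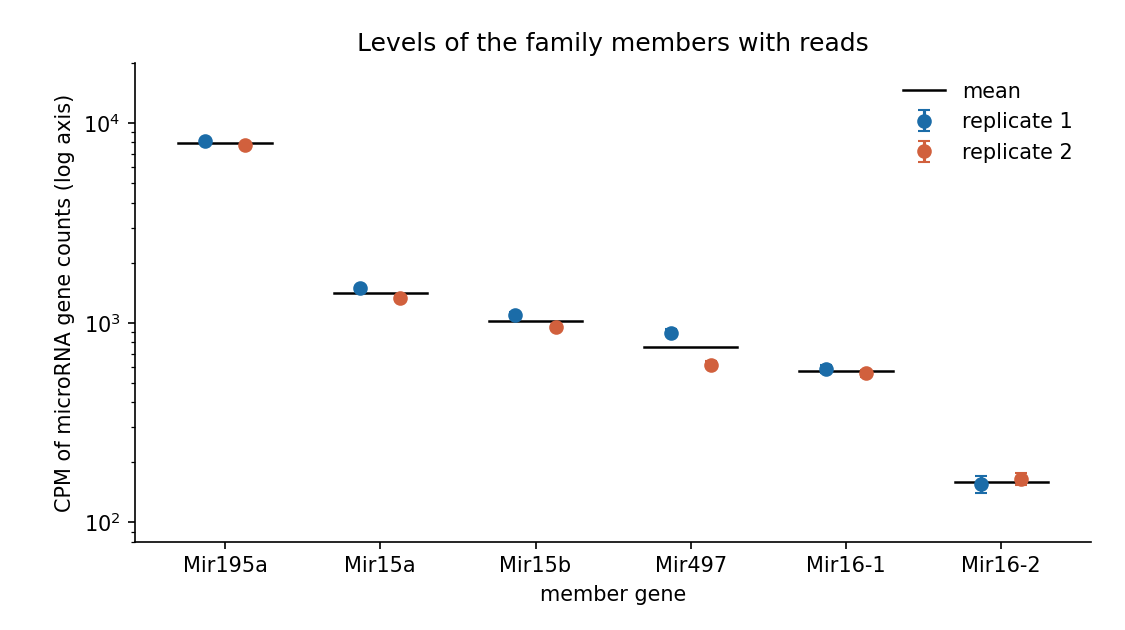
CPM of each member with reads on a log axis, 1 point per replicate with its 95% exact counting interval, and a black bar at the mean of 2 replicates. Mir195a stands highest, at 8142 and 7785 CPM, and Mir497 has the replicates farthest apart in ratio (889 and 616 CPM). For Mir16-1 and Mir16-2 the read counts are lower bounds, and the CPM may err either way.

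The order of the 6 levels was the same in both replicates, from Mir195a through Mir15a, Mir15b, Mir497 and Mir16-1 to Mir16-2. The gap between neighbours was larger than the larger of their SDs in 4 of the 5 steps. The exception was Mir497 against Mir16-1, whose means differed by 180 CPM while the SD of Mir497 was 193 CPM. In each of the Mir15 and Mir16 clusters the Mir15 gene had more assigned reads than its Mir16 partner, but this comparison is one-sided because the Mir16 counts lack the reads that fit both loci.

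Mir497b had 0 reads on its own strand in both libraries, for which the one-sided 95% limit is 3 reads, a level of up to 1.12 CPM in the first library and 0.699 CPM in the second. The opposite-strand column for Mir497b held 2376 and 2646 reads, exactly the reads of Mir497. All reads at this overlapping pair thus lay on the Mir497 strand. When strand was ignored both genes had 0 reads, because reads that fit overlapping genes on opposite strands are then left ambiguous. The other 5 members had the same count with and without regard to strand and 0 reads on the opposite strand.

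**Figure D2:**
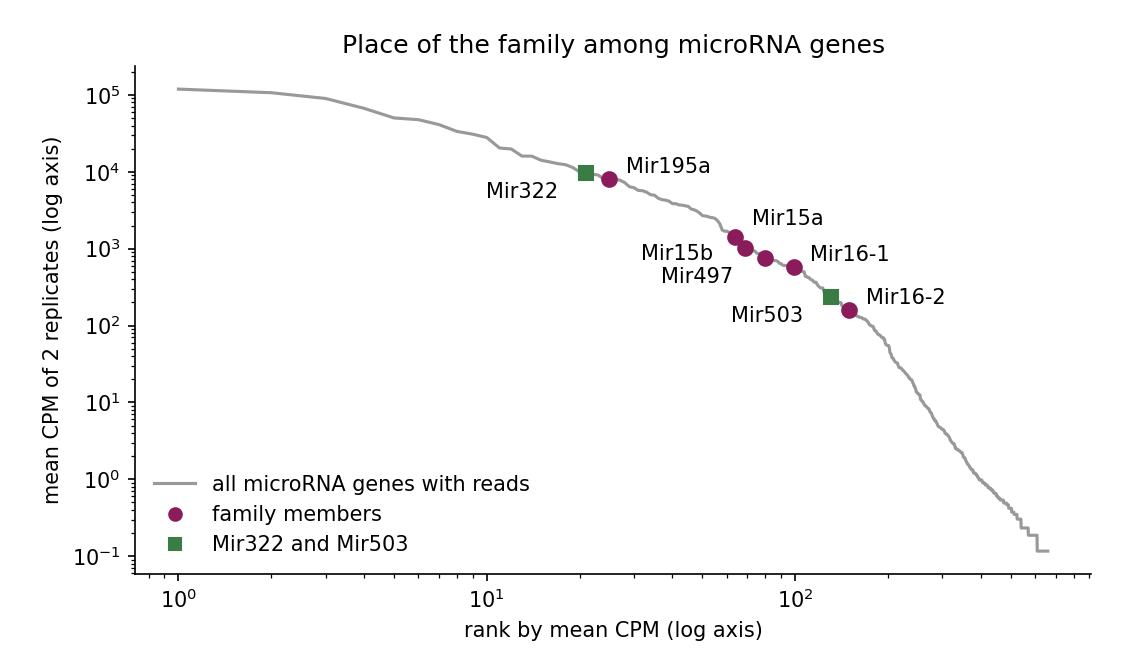
Mean CPM against rank for all microRNA genes with reads, both on log axes, with the 6 members as circles and Mir322 and Mir503 as squares. The members span ranks 25 to 150, and Mir322 lies just above Mir195a.

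The seed is not confined to these clusters. Of 1738 mature sequences in the RefSeq table, 11 carried it, in 11 genes, of which 6 were members. The other 5 genes were Mir322, Mir195b, Mir6342, Mir6353 and Mir6419, and all were counted in the files. Mir195b, Mir6342, Mir6353 and Mir6419 had 0 reads in both libraries, with the same upper limits as Mir497b. Mir322, on the X chromosome beside Mir503 and known to promote cell cycle exit of myoblasts, was the exception. Its guide strand and that of Mir503 are shown with bases 2 to 8 in capitals.
miR-322-5p (Mir322): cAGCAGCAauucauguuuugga
miR-503-5p (Mir503): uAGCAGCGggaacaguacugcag
miR-503-5p departs from the family seed at its last base, by A8G against miR-16-5p, and was not counted as a sharer.

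Mir322 was at 8672 CPM in the first replicate and 10347 CPM in the second, a mean of 9510 ± 1184 CPM at rank 21. Mir503 had 222 and 245 CPM, a mean of 233 ± 16.5 CPM. Over all 11 genes with the seed, assigned reads made up 2.14% ± 0.0511 of the total. Mir322 held 41.2% of them in replicate 1 and 47.6% in replicate 2, and Mir195a held 38.7% and 35.8%. The means of Mir322 and Mir195a differed by more than either SD, and Mir322 was the higher of the pair in both libraries. The 6 members together held 58.8% of the seed's reads in replicate 1 and 52.4% in replicate 2. These shares leave out the miR-16-5p reads that fit both loci.

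Between the libraries, 5 of the 6 members with reads had a lower CPM in replicate 2 than in replicate 1, against 49.4% of the 176 genes whose mean reached 100 CPM. For 4 of the 6, Mir15a, Mir15b, Mir195a and Mir497, the exact 95% counting interval of the ratio excluded 1, each time lower in replicate 2. Among all genes whose mean reached 1 CPM this interval excluded 1 for 42.9%, and among the 176, where all 6 members fall, for 73.9%. It lay below 1 for 34.7% of those 176 genes and above 1 for 39.2%. Without regard to direction, the count of 4 in 6 is thus close to what genes of this depth show. By direction, 4 of 6 lay below 1, against 34.7% of the 176 genes. With 1 library on each side the ratios compare libraries, and no p-value was computed.

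Most of these differences were small. Mir195a was 1.05-fold higher in replicate 1 (1.03 to 1.06), Mir15a 1.12-fold (1.08 to 1.17) and Mir15b 1.15-fold (1.09 to 1.204). The intervals of Mir16-1 (1.05-fold, 0.986 to 1.12) and Mir16-2 (0.940-fold, 0.831 to 1.06) included 1. With replicate 1 as the base, the log2 ratio had a median of -0.12 over the 6 members and 0.01 over the 176 genes. The median size of the difference, in either direction, was 1.09-fold for the members and 1.12-fold for the 176 genes.

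Mir497 was the member farthest apart, 1.44-fold higher in replicate 1 (1.36 to 1.52). Of the 176 genes at 100 CPM or more, 17, Mir497 included, differed by as much or more in either direction. The family as a whole was 1.08-fold higher in replicate 1 (1.07 to 1.10), and without Mir195a it was 1.16-fold higher (1.14 to 1.19).

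**Figure D3:**
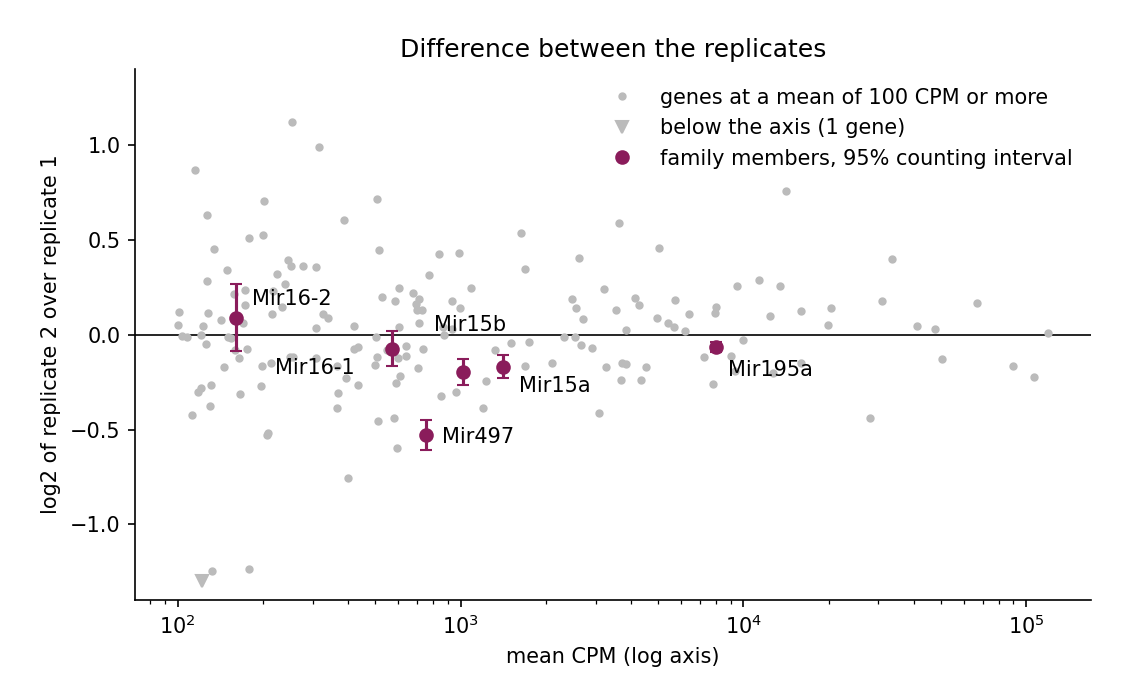
Log2 of replicate 2 over replicate 1 against mean CPM (log axis) for the 176 genes whose mean reached 100 CPM. Members are shown with 95% counting intervals, and the triangle marks 1 gene beyond the axis. Mir497 sits at -0.53 and the other members between -0.20 and 0.09.

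Markers of blood and other cell types were compared between the libraries too. Both erythroid markers were higher in replicate 1, with Mir451a at 251 and 107 CPM and Mir144 at 186 and 78.3 CPM, and their sum was 2.36-fold higher (2.15 to 2.59). Of 6 leukocyte markers, 4 were higher in replicate 1 by their interval, Mir223 was not, and Mir142b had 0 reads. The leukocyte sum was 1855 CPM in replicate 1 and 1347 CPM in replicate 2, a 1.38-fold difference (1.33 to 1.43). The hepatocyte microRNA Mir122 had 229 and 14.2 CPM. The endothelial Mir126a had 118724 and 119268 CPM, and the 8 muscle markers summed to 95682 and 85338 CPM, nearly all of it Mir206. Reads that fit several loci are in no gene's count. The small share of the other muscle markers therefore does not show that their mature microRNAs are scarce. Of the 4 muscle markers whose mean reached 100 CPM, 2 were higher in replicate 2 by their interval and 2 were lower. Over all 176 genes at that level, 39.2% were higher in replicate 2 by their interval and 34.7% were lower. The part of blood or other cells in the family's difference was not tested.

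The read ratio of any pair of genes within a library does not depend on the library total. It was taken here for cluster partners, which come from neighbouring hairpins. Mir195a had 9.16 reads for each Mir497 read in replicate 1 and 12.6 in replicate 2, a 1.38-fold change of the ratio (1.301 to 1.46). Mir15b had 7.02 reads per Mir16-2 read in replicate 1 and 5.75 in replicate 2, and the ratio in replicate 2 was 0.819 of that in replicate 1 (0.719 to 0.933). Mir15a had 2.53 and 2.37 reads per Mir16-1 read, and the interval of the change (0.868 to 1.01) included 1. Whether the 3 changes differ from each other was not tested, and the Mir16 counts lack the reads that fit both loci.

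Across all microRNA genes there were 40 such pairs, defined as next genes on the same strand within 1000 nt that both had a mean of 100 CPM or more. The interval of the change excluded 1 for 70% of them, 28 pairs, against 2 of the 3 family pairs. These intervals use the normal approximation on the log ratio of counts. Pairs in 1 cluster share genes and are not independent. The median change over the 40 pairs was 1.16-fold, and 5 pairs, Mir195a with Mir497 included, changed by as much as that pair or more. In size of imbalance of assigned reads the family pairs were not extreme either. Genes whose reads fit several loci, such as the Mir16 genes, lose counts, so these ratios partly reflect which reads could be assigned. How far this holds for the other pairs was not tested. The median pair had 4.58 reads of the higher gene per read of the lower one, the widest pair 71.1, and 11 of the 40 were at least as uneven as Mir195a and Mir497.

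**Figure D4:**
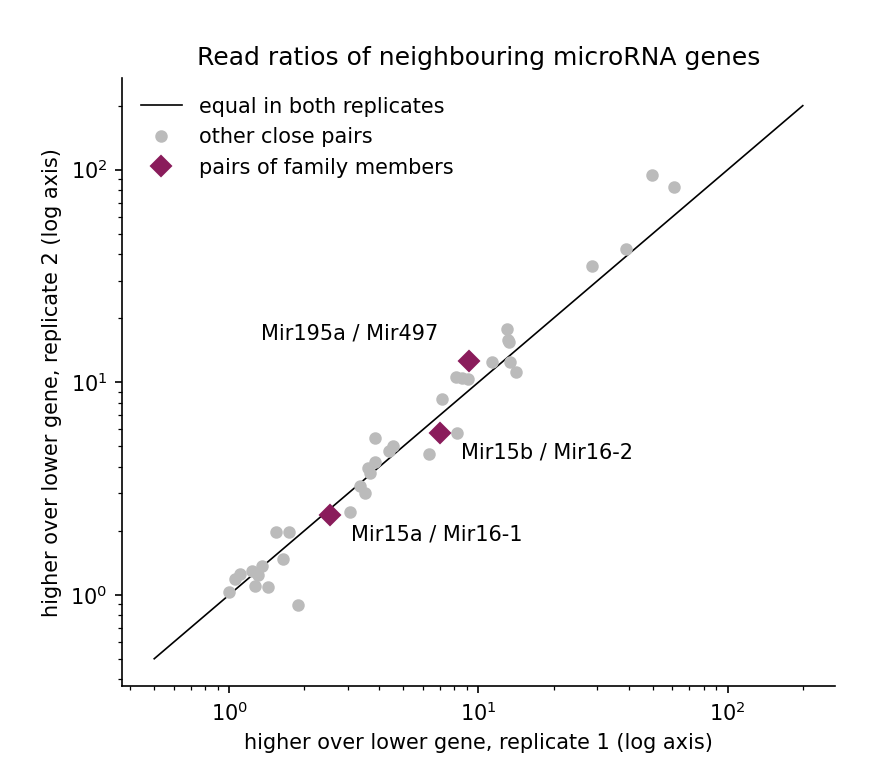
Reads of the higher gene per read of the lower gene in each of 40 pairs of neighbouring microRNA genes, replicate 1 against replicate 2, both on log axes, with a line where the libraries are equal. Mir195a over Mir497 lies above the line (9.16 and 12.6), and the other 2 family pairs lie below it.

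The family was set beside other microRNAs known to act on the cell cycle. The list of cell cycle restrainers held 15 genes of the Mir34, Mir449, Mir29, Mir26 and Mir322-Mir503 groups. Of these, 12 reached 1 CPM in both replicates, against 16.7% of all genes. Together the 15 held 3.10% ± 0.258 of assigned reads, led by Mir26b (20377 ± 1379 CPM), Mir322 and Mir29a (421 ± 15.3 CPM). Mir34a, a target of p53 that blocks G1 cyclins, had 225 ± 35.4 CPM. Among the 6 of them at 100 CPM or more, the interval lay above 1 for 3 and below 1 for 1, with a median log2 ratio of 0.14. Over all genes at that level it lay above 1 for 39.2% and below 1 for 34.7%.

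The list of cell cycle promoters held the 17 genes of the Mir17-92 cluster, its paralogs and Mir221 with Mir222. Of these, 13 reached 1 CPM in both replicates, against 16.7% of all genes. Together the 17 held 0.513% ± 0.0293 of assigned reads, led by Mir17 (1512 ± 34.5 CPM), Mir93 (1200 ± 226 CPM) and Mir92-1 (730 ± 46.9 CPM). Among the 7 at 100 CPM or more, the interval lay above 1 for 1 and below 1 for 3, with a median log2 ratio of -0.08. The percentages over all genes at that level were 39.2% above 1 and 34.7% below 1. In assigned reads, the Mir15 and Mir16 family at 1.19% lay between the lists. Mir26b and Mir322 made up most of the restrainer sum, and Mir322 carries the family's own seed. Mir195a alone, at 0.796% ± 0.0253, exceeded the summed promoters in both libraries (0.814% against 0.534% and 0.778% against 0.493%). Several genes of both lists have identical copies whose reads are likewise lost, so the read counts behind the list sums are lower bounds. The shares may err either way, because the assigned total also lacks multiply aligned reads.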

How the data were processed

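The authors deposited 1 file of raw read counts for each library, on mm10 per the labels and with GENCODE M21 per a text deposited beside it. No source used here names the software for alignment and counting, and the strand of each column was read from its layout and values. The labels select RNA under 30 nt. The second count column (same strand) was used, and counts were divided by its total over gene rows. The 4 summary lines, 66.6% and 64.6% of reads, stayed out of totals.

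Shares have exact Clopper-Pearson 95% intervals, and replicate ratios have exact intervals conditional on the summed count. The interval script was tested on simulated data. With 1 group there was no test, and no gene was named for a like pattern over samples. Symbols and positions came from GENCODE M21, and printed sequences from RefSeq (GRCm38.p6). Named genes were the members, sharers of the seed, neighbours in rank and the top 3 of each list. Mir503, Mir34a and other list genes were named after their values were seen. The members and lists were chosen with earlier results of these data known.

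Alternatives covered the strand column, denominators, thresholds, edgeR 4.0.16 TMM and DESeq2 1.42.0 size factors (R 4.3.3), and each replicate alone. Python 3.11.15, numpy 2.4.6, pandas 2.3.3 and scipy 1.17.1 were used.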

Additional observations from a re-analysis of the deposited data

Results flagged for a closer look

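The column of opposite-strand reads, which no level used, held 2376 reads for Mir497b in replicate 1 and 2646 in replicate 2, above the limit of 3 reads. These equal the same-strand reads of Mir497, whose hairpin lies inside the Mir497b locus. The other 6 members had 0 reads in that column. No group had the 4 samples needed to look for a library that stands apart.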

How the results depend on the processing

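The size of each level depends on the denominator. Directions between the replicates did not change with edgeR TMM or DESeq2 factors, nor for the family sum with strand ignored. Ratios were not rerun under the other denominators. Of all reads, 33.4% were assigned in replicate 1 and 35.4% in replicate 2. Per all reads, the point values of Mir195a and Mir16-1 would lie slightly higher in replicate 2, so their direction depends on the denominator. The family share of 1.19% became 1.497% with strand ignored, 0.408% of all reads, 3.08% without the 10 most abundant genes and 2.14% with the other carriers of the seed, and ranged from 1.14% to 1.24% with either replicate left out. The median over the 7 members, 753 CPM, became 257 CPM per all reads and 1957 CPM without those 10 genes, and ranged from 616 to 889 CPM with either replicate left out. With strand ignored, Mir497 fell to 0 CPM, members at 1 CPM numbered 5, and the Mir497 and Mir195a share of the family became 71.6%. That share ranged from 73.1% to 73.7% over single replicates. The family ratio of replicate 2 over replicate 1, 0.923, became 0.904 with edgeR TMM factors, which shifted every log2 ratio by -0.03, and the interval of Mir16-1 then excluded 1 too, making 5 members. Ratios that rest on the fewest reads, those of Mir16-2 (415 and 709 reads), are limited by depth. Each of the 6 member levels moved beyond its SD with strand ignored and under both other denominators. With 2 replicates, leaving 1 out cannot move a mean beyond its SD, so it says nothing about stability. Of the 6 member ratios, that of Mir195a moved beyond its counting interval with TMM, to 0.937, and none did with DESeq2 size factors.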
